A study of Mus musculus with 4 samples.

Results

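The genes described here are 38 genes listed as interferon-stimulated, among them 6 guanylate-binding protein (GBP) genes, read in CD4+ T cells of mouse spleen. They were taken by symbol from a list that was drawn up with earlier results of these data known, and no measured value entered the rule. Of 38588 gene models in each library table, 35 carried the symbol of a member. The DDX58 and TRIM21 symbols were not among the models used here, and TAP2 is listed only as a pair of models with positions in their names, which are given apart.

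RbLoTem cells were sorted as CD4+CD62L-CD44+FoxP3-CD45RbLo effector/memory cells and RbHiTn cells as the CD62L+CD44-CD45RbHi naive subset, also without FoxP3. Both came from spleens of C57BL/6-Foxp3tm1Flv/J mice, which carry a fluorescent reporter in the Foxp3 gene, and their age is not stated in the labels or the methods. By the labels, both subsets were activated for 72 h in wells coated with 2 μg of antibody to CD3, which belongs to the T cell receptor, before messenger RNA was taken. Each subset had 2 libraries, of which the second carries the suffix o, and values are given below in the order without and with the suffix. No source says that the 2 libraries came from separate mice or cultures, so the tests measure the spread between libraries, which may be technical. The design has no library of unstimulated or interferon-treated cells.

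Interferons signal through cell surface receptors and the kinases JAK1, JAK2 and TYK2 to transcription factors of the STAT family. Type I interferon leads to a complex that holds STAT2 and IRF9 and binds the interferon-stimulated response element (ISRE), and interferon-γ to a STAT dimer that binds the gamma-activated site (GAS). The induced genes encode sensors of viral RNA, enzymes that degrade or edit it, GTPases that attack the vacuoles of intracellular microbes, and proteins that load peptides on MHC class I. T cells both produce interferon-γ and respond to it.

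The tables list human gene models, with human symbols and positions, for these mouse cells. A mouse transcript that differs from the human sequence can lose its reads, so a model without reads says nothing about whether the mouse gene was expressed. Exon reads per library lay between 3795660 and 5873287, of which between 89.8% and 90.5% matched a single place. Among markers of T cells, LCK had 2272 to 3912 reads per library and CD3G 178 to 546, whereas CD4 had only 1 to 4, and CD3D and CD28 had 0.

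The promoters of the mouse GBP genes are shown because members of this family were lower together in RbLoTem cells, as described below. Of the 38 members, 27 matched a mouse gene in the RefSeq promoter table (GRCm38.p6), in which the 250 bases before each start were searched on both strands. The ISRE was searched as GAAA, any 2 bases and GAAA, which reads TTTC, any 2 bases and TTTC on the other strand, and the GAS as TTC, any 3 bases and GAA. Overlapping matches were counted, and Gbp4, Gbp6 and Stap1 were not matched to the table. In the first of the Gbp3 windows, chr3:142559794-142560043 on the + strand, a pair of overlapping ISRE matches begins 45 and 39 bases before the start, and capitals mark them.
Gbp3: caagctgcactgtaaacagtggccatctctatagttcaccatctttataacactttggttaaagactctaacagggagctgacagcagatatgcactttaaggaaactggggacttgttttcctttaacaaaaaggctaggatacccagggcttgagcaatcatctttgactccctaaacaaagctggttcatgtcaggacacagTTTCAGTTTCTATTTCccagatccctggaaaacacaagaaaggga

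The promoters of the neighbouring genes Gbp2, Gbp5 and Gbp7 each hold an ISRE match too, 59, 165 and 53 bases before the start. Gbp5 also holds GAS matches 245 and 52 bases before the start, and Gbp7 holds them 106 and 87 bases before it. The ISRE stretches lie on the + strand at chr3:142620584-142620633, chr3:142496749-142496798 and chr3:142530263-142530312 (GRCm38.p6), with the match in capitals.
Gbp2: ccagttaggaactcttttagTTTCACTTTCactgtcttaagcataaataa
Gbp5: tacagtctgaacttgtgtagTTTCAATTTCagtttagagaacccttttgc
Gbp7: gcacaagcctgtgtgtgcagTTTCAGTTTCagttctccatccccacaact

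Isg20, which had no reads in RbLoTem cells, held no ISRE match. In 1 of its windows a GAS match begins 73 bases before the start, at chr7:78913331-78913379 on the + strand (GRCm38.p6).
Isg20: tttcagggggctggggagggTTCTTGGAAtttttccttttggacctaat
In all, 8 of 27 member genes (29.6%) held an ISRE match in a promoter window and 4 (14.8%) a GAS match, against 3.46% and 8.13% of 27025 mouse genes. The members were listed as interferon-stimulated, so a higher ISRE share was built into the choice and says nothing about the lower genes. Of the members with an ISRE match only GBP3 was tested. BST2, ISG15 and RSAD2 had 0 reads, OAS3 had 1, and GBP2, GBP5 and GBP7 had too few for the test. Among the tested members, Gbp3 held an ISRE match in 1 of its windows and Isg20 a GAS match in 1, and the promoters of Adar, Ifih1 and Tap1 held neither. Gbp4, Gbp6, Stap1 and Nlrc5 were not matched, so whether the matches follow the calls cannot be read from these promoters. A match is a description of the letters and not of a bound site.

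Reads on the members were few and fell on few of them. Of the 35 models, 22 (62.9%) had at least 1 exon read in the 4 libraries, against 25.3% of all models. The 22 together had 2278 reads, of which 40.8% lay on ADAR. Of these 22, 9 passed the filter on low counts and held 94.8% of the member reads.

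**Figure D1:**
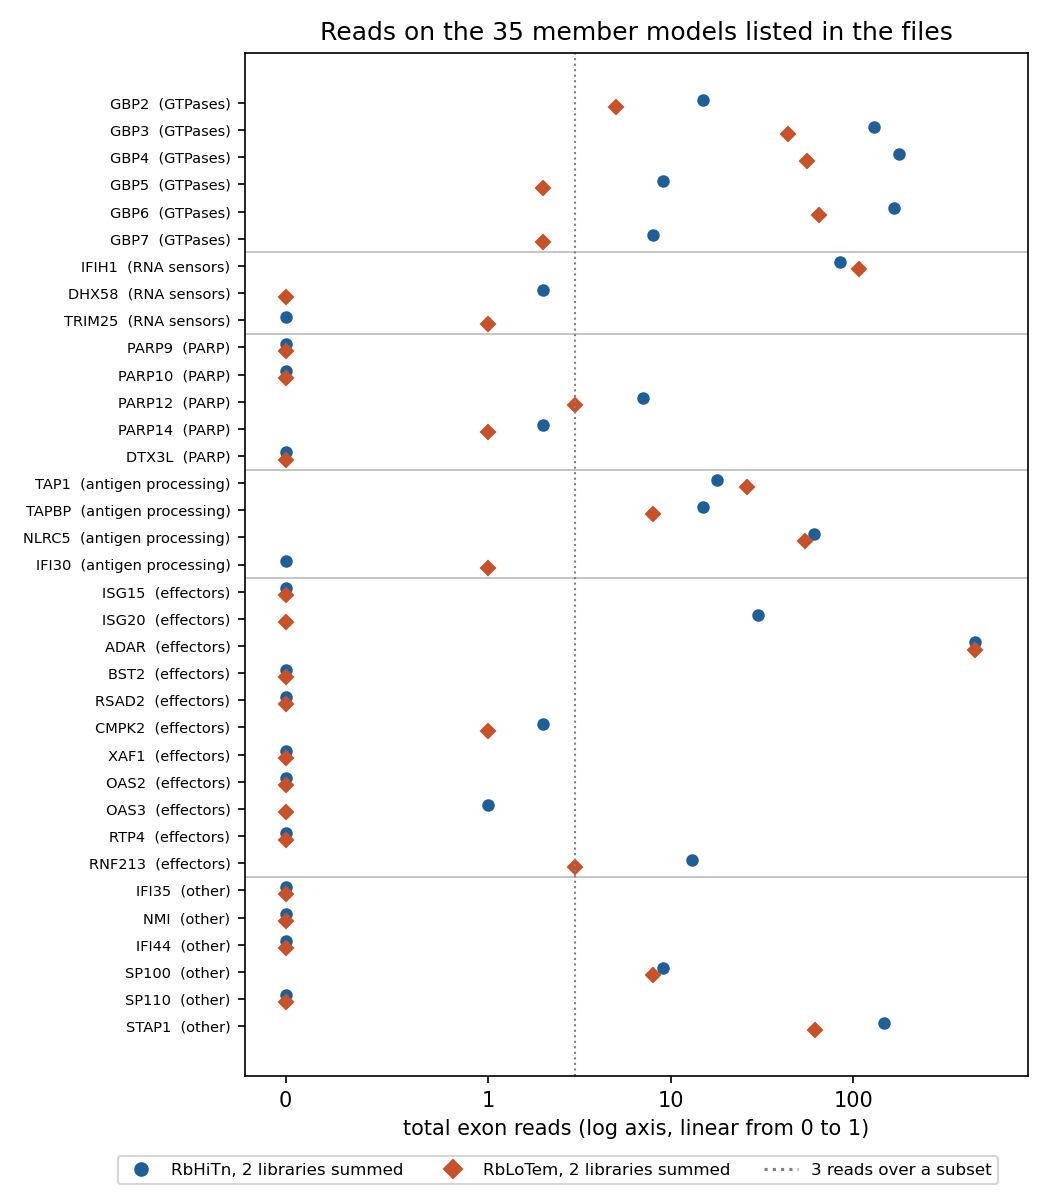
Total exon reads on each of the 35 member models, summed over the 2 libraries of RbHiTn cells (circles) and of RbLoTem cells (diamonds), on a log axis that is linear from 0 to 1. The 6 GBP models lie higher in RbHiTn cells, ADAR lies at 465 and 464 reads, and 13 models lie at 0 in both subsets.

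In RbLoTem cells, GBP3, GBP4 and GBP6 were 2.65- to 3.28-fold lower than in RbHiTn cells, STAP1 by 2.47-fold, and ISG20 had no reads at all. The RNA sensor gene IFIH1, the RNA-editing enzyme gene ADAR and the antigen-processing genes NLRC5 and TAP1 were not called. ISG20 entered the test through the RbHiTn libraries alone, so its place among the lower genes was set by the filter and is a description. Of the other 8 tested members, 4 were lower and none was higher at an adjusted p under 0.05 from edgeR, a count without ISG20 that was chosen after the data were seen. With ISG20 the counts were 5 and 0, also at an unadjusted p under 0.05, by DESeq2 and by limma. Of all 6539 tested models 23.6% were called lower and 24.3% higher. The median log2 fold change was -0.77 over the 8 members and -1.30 with ISG20, against -0.01 over all tested models. The libraries are of whole sorted populations, in which fewer cells of a type and less RNA per cell cannot be told apart.

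The GBP genes encode large GTPases that are strongly induced by interferon-γ. Their human models lie side by side on human chromosome 1, from 89472363 to 89851446 as the files give it, a span of 379 kb that also holds GBP1, and the files do not name the genome build. In the mouse the genes form a pair of clusters, with Gbp2, Gbp3, Gbp5 and Gbp7 in 1 and Gbp4 and Gbp6 in the other (RefSeq), so a human model is matched to a mouse gene here by symbol alone. Reads from mouse paralogs cannot be separated, although between 96.6% and 100% of the exon reads on each of the 6 human models matched a single place.

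GBP3 had 76 and 54 reads in RbHiTn cells and 20 and 24 in RbLoTem cells. Both RbHiTn libraries lay above both RbLoTem libraries, at an RPKM of 2.87 ± 0.2 against 0.935 ± 0.0904 (SD, n = 2 each), where RPKM divides the exon reads by exon length and by the reads in genes of the library. The fitted log2 fold change came to -1.61 ± 0.25 (SE; edgeR adjusted p = 3.1e-06).

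GBP4 had 118 and 60 reads in RbHiTn cells and 22 and 34 in RbLoTem cells. The subsets did not overlap, with RPKM of 2.96 and 2.34 against 0.768 and 0.863. The fitted log2 fold change came to -1.70 ± 0.22 (SE; edgeR adjusted p = 1.5e-07), the largest in size among tested members with reads in both subsets. Only 24.8% of GBP4 reads spanned an exon junction.

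GBP6 had 100 and 67 reads in RbHiTn cells and 20 and 45 in RbLoTem cells. It was the most abundant GBP model, at an RPKM of 6.37 and 6.63 against 1.77 and 2.90. The RbLoTem libraries differed from each other more than the RbHiTn libraries did, but remained below them. The fitted log2 fold change came to -1.41 ± 0.22 (SE; edgeR adjusted p = 3.5e-06), and 92.7% of the reads spanned a junction.

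GBP2, GBP5 and GBP7 had too few reads for the test. GBP2 had 9 and 6 reads in RbHiTn cells against 4 and 1, a ratio of 3.10 (exact 95% counting interval 1.07 to 10.9). GBP5 had 8 and 1 reads against 0 and 2, and its libraries overlapped in RPKM. GBP7 had 4 reads in each RbHiTn library and 1 in each RbLoTem library, a ratio of 4.13 whose interval of 0.824 to 39.9 includes 1. Counting intervals cover counting error only.

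Within the family the fold changes of the tested models lay close together. RPKM of GBP6 over GBP4 was 2.15 and 2.84 in RbHiTn cells and 2.31 and 3.36 in RbLoTem cells, and GBP3 over GBP4 was 0.921 and 1.29 against 1.30 and 1.01. These ratios overlapped between the subsets. Summed over the 6 models, RPKM was 12.7 and 12.6 in RbHiTn cells and 3.77 and 4.76 in RbLoTem cells.

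**Figure D2:**
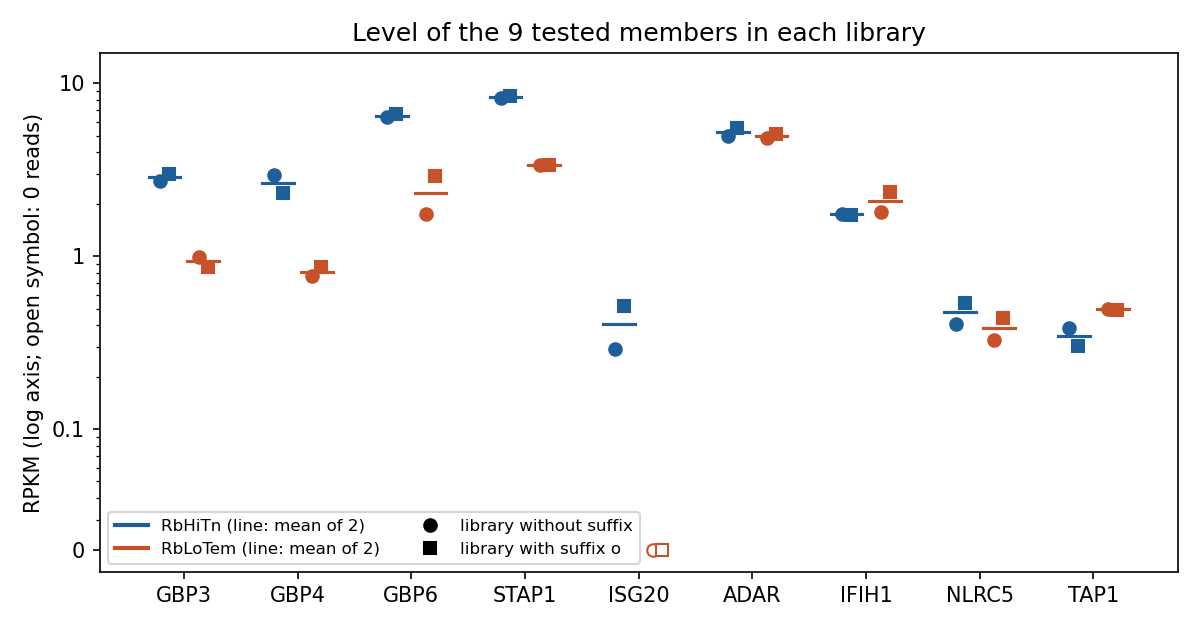
RPKM of the 9 tested members in each library (symbols) with the mean of the 2 libraries (lines), on a log axis with values of 0 drawn open at the bottom. GBP3, GBP4, GBP6, STAP1 and ISG20 lie lower in both RbLoTem libraries, and ADAR and NLRC5 overlap.

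STAP1 encodes a signalling adaptor with an SH2 domain that is known from B cells and blood stem cells, and it is the member with the highest RPKM in RbHiTn cells. It had 89 and 59 reads in RbHiTn cells and 26 and 36 in RbLoTem cells, with RPKM of 8.26 and 8.5 against 3.36 and 3.38. The libraries of each subset lay close to each other and the subsets were apart. The fitted log2 fold change came to -1.30 ± 0.22 (SE; edgeR adjusted p = 1.1e-05). The model lies on human chromosome 4 from 68424446 to 68473055.

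ISG20 encodes an interferon-induced exonuclease that degrades single-stranded RNA. It had 14 and 16 reads in RbHiTn cells and 0 in both RbLoTem libraries, and all 30 reads spanned an exon junction and matched a single place. Against a floor of 3 reads over the subset it was at least 10.3-fold lower in RbLoTem cells, which is given without a test because ISG20 passed the filter through the RbHiTn libraries alone. Its RPKM of 0.292 and 0.518 in RbHiTn cells was low beside the median of 6.23 over tested models. The model lies on human chromosome 15 from 89179384 to 89199714.

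GBP3, GBP4, GBP6 and STAP1 reached the filter's limit of 1.98 CPM in all 4 libraries. These 4 of the 8 had both RbLoTem libraries below both RbHiTn libraries in RPKM, against 37.6% of all tested models. IFIH1 and TAP1, 2 of the 8, had both RbLoTem libraries above, against 34.8%. TAP1 reached the limit in both RbLoTem libraries but in only 1 RbHiTn library, so its place above is a description.

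Markers of B cells moved with these members. All 6 tested of 16 listed B cell markers were called lower in RbLoTem cells, and RPKM summed over the 12 models of the list was 9.35 and 10.2 in RbHiTn cells and 0.278 and 0.328 in RbLoTem cells. CD79A, MS4A1 and BLK were at 0 reads in both RbLoTem libraries, and CD79B, CD22, FCER2 and FCRLA at 0 in all 4. Of 16 dendritic cell and monocyte markers 2 were tested, SPI1 and CTSS, and both were lower, with a summed RPKM of 4.12 and 3.71 against 0.455 and 0.552. EOMES, the only tested one of 7 NK and CD8 T cell markers, was also lower, whereas CD8A, CD8B, GZMA, KLRD1 and NCR1 were at 0 reads. Relative to RbHiTn cells, RbLoTem cells had 1.54% of the reads on BANK1, 15.2% on EBF1 and 23.2% on CTSS (counting interval 14.2% to 36.6%). For the members the percentage was 32.8% on GBP3 (22.7% to 46.5%) and 30.5% on GBP4 (22.1% to 41.3%). It was 37.7% on GBP6 (27.8% to 50.5%) and 40.6% on STAP1 (29.7% to 54.9%). The interval of CTSS overlapped each of these. By the methods of the study, splenic cells were first enriched for CD4 with magnetic beads and then sorted. The part of other cells in the lower GBP, STAP1 and ISG20 reads was not tested.

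**Figure D3:**
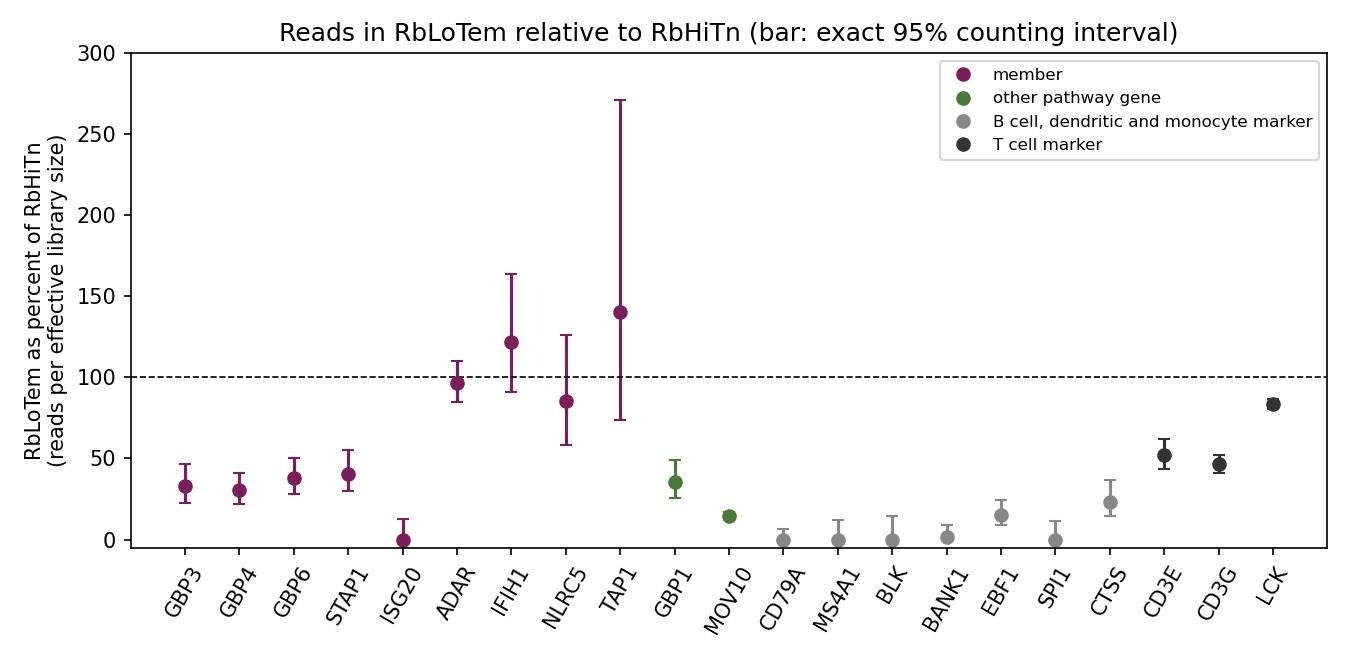
Reads in RbLoTem cells as a percentage of RbHiTn cells, scaled to effective library size, for tested members, GBP1, MOV10 and cell type markers (points, with exact 95% counting intervals as bars). GBP3, GBP4, GBP6 and STAP1 lie between 30.5% and 40.6%, CTSS at 23.2%, EBF1 at 15.2%, and CD79A, MS4A1, BLK, SPI1 and ISG20 at 0.

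The tested T cell markers themselves differed less by their percentages, but the intervals of CD3E and CD3G overlapped those of members. CD3E and CD3G are chains of the CD3 complex. RbLoTem cells had 52.1% of the RbHiTn reads on CD3E (counting interval 43.6% to 62%) and 46.3% on CD3G (41.1% to 52.2%). The CD3G interval overlapped those of GBP3, GBP4, GBP6 and STAP1, and the CD3E interval those of GBP3, GBP6 and STAP1. LCK, the kinase next to the receptor, had 83.7%. CD3E, CD3G and LCK, 3 of the 6 tested T cell markers, were called lower and none was called higher.

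Of the RNA sensors only IFIH1 had enough reads for the test, and it was not called. It encodes MDA5, a helicase that senses long double-stranded RNA in the cytosol, and had 52 and 33 reads in RbHiTn cells and 38 and 69 in RbLoTem cells. Its RPKM was 1.76 and 1.74 against 1.80 and 2.37, so that the RbLoTem libraries lay above, 1 of them barely. The fitted log2 fold change came to 0.28 ± 0.23 (SE; edgeR adjusted p = 0.34), and the ratio of reads in RbHiTn over RbLoTem cells was 0.82 with a counting interval of 0.61 to 1.10. DHX58, the gene of the related helicase LGP2, had 2 reads in 1 RbHiTn library, and TRIM25, a ubiquitin ligase that acts on the sensor RIG-I, had 1 read in 1 RbLoTem library.

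The PARP genes among the members had almost no reads. PARP12, which encodes a mono-ADP-ribosyltransferase, had 5 and 2 reads in RbHiTn cells and 0 and 3 in RbLoTem cells, a ratio of 2.41 with an interval of 0.55 to 14.4. PARP14 had 3 reads in all. PARP9 and its partner ubiquitin ligase DTX3L, and PARP10, had 0 reads in every library.

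Of the 5 antigen-processing members NLRC5 and TAP1 were tested, and neither was called. NLRC5, which encodes the transactivator of MHC class I genes, had 33 and 28 reads in RbHiTn cells and 19 and 35 in RbLoTem cells, all of them across exon junctions. The subsets overlapped, and the log2 fold change was -0.23 ± 0.29 (SE; edgeR adjusted p = 0.54). TAP1, a subunit of the transporter that brings peptides into the endoplasmic reticulum, had 12 and 6 reads against 11 and 15. Its RPKM was 0.345 ± 0.0613 against 0.494 ± 0.00319 (SD, n = 2 each), with a fitted log2 value of 0.48 ± 0.44 (SE; edgeR adjusted p = 0.39), and at these counts the interval of the RbHiTn to RbLoTem ratio was 0.369 to 1.36.

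TAP2, the partner subunit, has a longer model with 9 and 7 reads in RbHiTn cells against 4 and 6, and a shorter model with 5 and 3 against 4 and 13. The models overlap in position and none of these reads matched a single place, so the opposite order of the libraries in them cannot be read as a change. TAPBP, the gene of tapasin, which bridges the transporter and MHC class I, had 14 and 1 reads in RbHiTn cells and 3 and 5 in RbLoTem cells, and its libraries overlapped. IFI30, a lysosomal thiol reductase gene of MHC class II processing, had 1 read. Outside the members, other genes of peptide loading in the pathway list were called, CALR and PSME2 higher and PDIA3 and ERAP1 lower, and these 4 are named after their values were seen.

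Among the antiviral effectors ADAR was read best and differed least. ADAR deaminates adenosine in double-stranded RNA, and it had 272 and 193 reads in RbHiTn cells and 190 and 274 in RbLoTem cells. RPKM was 5.25 ± 0.362 against 4.98 ± 0.165 (SD, n = 2 each), and the libraries overlapped. The fitted log2 fold change came to -0.06 ± 0.11 (SE; edgeR adjusted p = 0.72), and the counting interval of the ratio, 0.908 to 1.18, includes 1.

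RNF213, a very large ubiquitin ligase gene, had 10 and 3 reads in RbHiTn cells and 1 and 2 in RbLoTem cells, a ratio of 4.48 (counting interval 1.23 to 24.5), too few for the test. CMPK2, a nucleotide kinase gene beside RSAD2, had 3 reads in all and OAS3 had 1. ISG15, the ubiquitin-like modifier gene, had 0 reads in all 4 libraries, as had RSAD2, OAS2, BST2, XAF1 and RTP4. Of the remaining members, SP100, a nuclear body protein gene, had 9 reads in RbHiTn cells and 8 in RbLoTem cells, of which 5.88% matched a single place. SP110, IFI35, NMI and IFI44 had 0 reads. On the 13 models without reads, a count of 0 over a subset allows an RPKM of up to 0.0302 to 0.394, depending on exon length, for what the human model can catch.

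**Figure D4:**
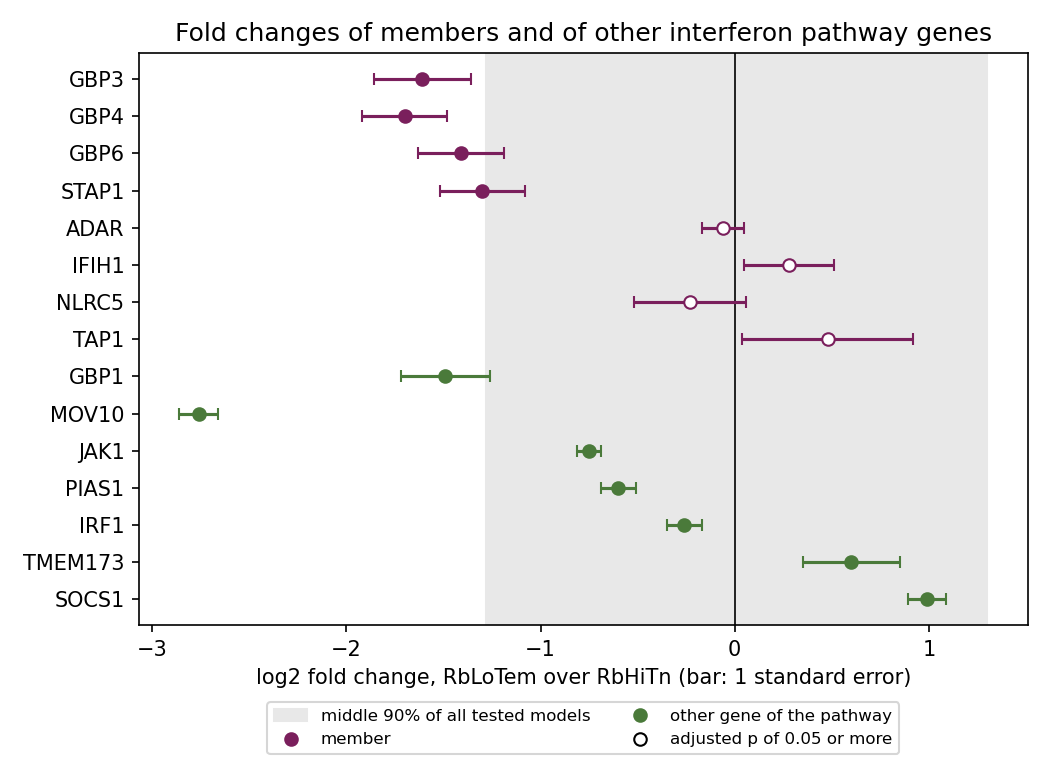
Log2 fold change (RbLoTem over RbHiTn) with 1 standard error for 8 tested members and 7 other genes of the interferon pathway, over the middle 90% of all tested models (grey). GBP3, GBP4, GBP6, GBP1, STAP1 and MOV10 lie below the grey band, from -1.28 to 1.30, and ADAR lies at -0.06.

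Other genes of the pathway were taken from a list of 90 receptors, signalling factors and interferon-stimulated genes. Models existed for 65 of them, reads for 45, and 27 entered the test. Of these 27, 9 were lower and 5 higher in RbLoTem cells from edgeR, against 23.6% lower and 24.3% higher of all 6539 tested models. The median log2 fold change of the 27 was -0.15, against -0.01 over all tested models. GBP1, a further guanylate-binding protein gene within the same human cluster, had RPKM of 3.46 and 3.81 against 1.06 and 1.42, a log2 fold change of -1.49 ± 0.23 (SE; edgeR adjusted p = 3e-06). MOV10, an RNA helicase gene that restricts retroviruses and retroelements, fell furthest, from an RPKM of 23.2 ± 1.73 to 3.37 ± 0.245 (SD, n = 2 each). On the log2 scale the fitted change was -2.76 ± 0.10 (SE; edgeR adjusted p = 1.2e-20).

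IRF1, a transcription factor gene that interferon-γ induces, differed by a fitted log2 value of -0.26 ± 0.09 (SE; edgeR adjusted p = 0.014), a call lost under 6 of 13 alternatives, with an adjusted p = 0.16 by DESeq2. STAT2 had 7 and 6 reads over the subsets. IRF9 had 17 and 13, none matching a single place, and IRF7 had 0.

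JAK1, the kinase shared by type I and type II interferon receptors, was lower, at an RPKM of 98.1 and 94.9 in RbHiTn cells and 57.0 and 57.4 in RbLoTem cells. On the log2 scale the fitted change was -0.75 ± 0.06 (SE; edgeR adjusted p = 4.1e-12). PIAS1, an inhibitor of STAT signalling, was lower as well, by a log2 fold change of -0.60 ± 0.09 (SE; edgeR adjusted p = 2e-06). SOCS1, the feedback inhibitor of the JAK kinases, was higher, at an RPKM of 92.6 ± 14.4 against 46.6 ± 5.1 (SD, n = 2 each). On the log2 scale it changed by 0.99 ± 0.10 (SE; edgeR adjusted p = 6.6e-10), with 49.1% of its reads matching a single place.

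TMEM173, the gene of the sensor adaptor STING, was called higher with a log2 fold change of 0.60 ± 0.25 (SE; edgeR adjusted p = 0.047), a call lost under 8 of 13 alternatives, with an adjusted p = 0.51 without the RbLoTem library with the suffix o. Receptor genes gave no value. IFNGR1, a chain of the interferon-γ receptor, and IFNLR1 had 0 reads, and the symbols IFNAR1, IFNAR2 and IFNGR2 were not among the models used here.

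The calls of GBP3, GBP4, GBP6 and STAP1 held under the alternatives that kept all 4 libraries, and their direction held with each library left out. Leaving out each library in turn, the log2 fold change lay between -1.69 and -1.49 for GBP3, between -1.84 and -1.49 for GBP4 and between -1.85 and -1.14 for GBP6. For GBP6 both ends come from leaving out 1 RbLoTem library, -1.85 without the library with the suffix o and -1.14 without the other. ISG20 had no value without the RbHiTn library with the suffix o, since it then failed the filter.

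**Figure D5:**
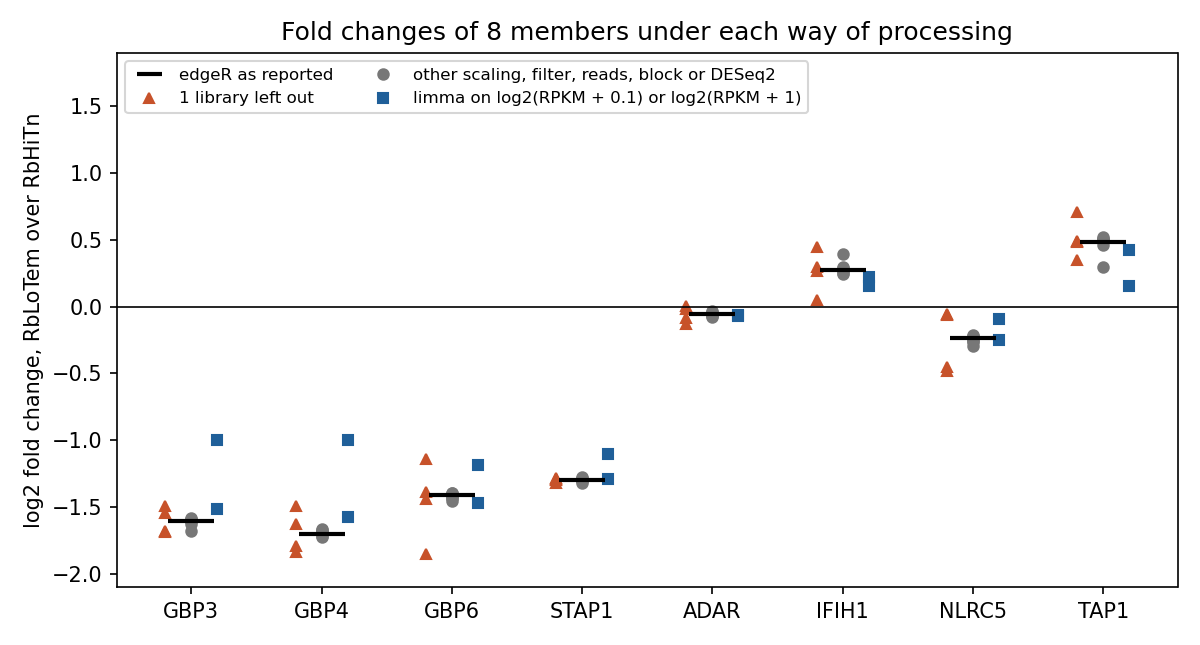
Log2 fold change (RbLoTem over RbHiTn) of 8 members in edgeR as reported (black lines), with 1 library left out (triangles), with other scaling, filter, reads, block or tool (circles), and in limma (squares), whose added constant shrinks it. GBP3, GBP4, GBP6 and STAP1 stay below 0 in every setting, and ADAR lies between -0.13 and 0.00.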

How the data were processed

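As the authors deposited them, the tables hold total and unique exon read counts of each gene model, and RPKM. In every library the deposited RPKM could be recomputed from total exon reads, exon length and reads in genes. The methods and the submitters' notes name Trimmomatic, TopHat, mm10, HTSeq and DESeq2. What produced tables with human models, and whether strand was used, was not stated. Reads in genes lay between 4192083 and 6514106 per library.

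Total exon reads were tested in R 4.3.3 with edgeR 4.0.16 (TMM, filterByExpr with a minimum of 10 reads, quasi-likelihood F test), and p-values were adjusted by Benjamini-Hochberg over 6539 models with a threshold of 0.05. The script was tested on simulated counts. Standard errors were taken as the log2 fold change over the square root of F. Counting intervals are Clopper-Pearson intervals at 95%, scaled to effective library size, and a fold against 0 uses a floor of 3 reads over the subset. Alternatives were DESeq2 1.42.0, limma 3.58.1 with 0.1 or 1 added to RPKM, RLE scaling, library totals, no filter, unique reads, reads in genes, a block on the suffix, and leaving out each library. Every member is accounted for. Of the pathway list, STAT2, IRF9, IRF1, IRF7, the receptors and the 6 largest other called changes are named, and some genes of the lists are not reported here. The members and lists were chosen with earlier results of these data known. Libraries of 1 subset differed beyond sampling noise (chi-square over degrees of freedom 2.06 and 2.07).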

Additional observations from a re-analysis of the deposited data

How the results depend on the processing

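GBP3, GBP4, GBP6, STAP1, IFIH1, TAP1 and NLRC5 kept their direction under 13 alternatives. They also kept their side of the threshold under those that kept all 4 libraries. ISG20, whose place among the lower genes was set by the filter, kept its direction under the 12 that gave it a value. With limma and 1 added to RPKM, which shrinks low genes, the log2 fold change of GBP3 was -0.998 and that of ISG20 -0.49. ADAR, called in no setting, lay between -0.13 and 0.004 with a library left out, and its sign turned without the RbHiTn library with the suffix o (adjusted p = 0.99), the cause of which was not tested. Members called lower numbered 5, with ISG20 counted, in each alternative that kept all 4 libraries. Pathway genes called higher, 5 by edgeR, numbered 3 by DESeq2, 3 by limma with 0.1 added, and 3 to 5 with a library left out. Over all models, DESeq2 called 991 lower and 1116 higher, against 1545 and 1592 by edgeR, and leaving out a library gave 1217 to 1381 lower and 1237 to 1483 higher; the cause was not tested. A replicate block on the suffix gave 1530 lower and 1562 higher, and changed no call among members, while TMEM173 lost its call (adjusted p = 0.063). Deviations of libraries with the same suffix had a correlation of -0.0147, and the labels do not say that the suffix pairs them. Low read numbers limit GBP2, GBP5, GBP7, RNF213, PARP12 and TAPBP, which were not tested.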
